A study of Mus musculus with 24 samples.

Results

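Spp1, the gene of the secreted phosphoprotein osteopontin, was followed through every drug arm of a mouse lung irradiation study. It was 1 of 27401 genes named on the arrays and was read by 1 probe, chosen as every probe that is not a control and that the array files name Spp1. The groups, each of 2 biological replicates, were irradiated lung (IR) and untreated lung, IR+Ly and Ly, IR+Imatinib and Imatinib, IR+Su and Su, IR+Ly+Imatinib and Ly+Imatinib, and IR+Ly+Su and Ly+Su. Total RNA of shock-frozen lung, labelled as taken 24 days after irradiation, was measured on 24 arrays with 1 dye. Imatinib blocks several tyrosine kinases, among them ABL, KIT and the receptors of PDGF. Ly and Su are given as the labels abbreviate them, and the labels name neither the mouse strain nor a dose. The question of the series, from its title, is whether blocking TGF-beta and PDGF signalling together attenuates radiation-induced lung fibrosis. Spp1 was selected on its intensity over these 12 groups, with the levels already known, so its levels and differences are described and not tested.

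Osteopontin is an acidic glycoprotein of bone matrix that macrophages, some epithelial cells and injured tissue also secrete. It binds integrins through an arginine-glycine-aspartate motif and binds the hyaluronan receptor CD44. Thrombin and matrix metalloproteinases cut it next to the integrin-binding motif, and the fragments bind further integrins. In the lung it is best known as a product of macrophages with lipid-handling and lysosomal genes, which gather in fibrotic tissue. In bulk tissue, fewer cells of a type and less RNA per cell cannot be told apart.

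The sequence before the start of Spp1 is shown because the results turn on the level of its transcript. RefSeq places these 250 bases on the + strand of GRCm38.p6 at chr5:104434861-104435110, directly before 1 of the 2 starts that its table lists. Capitals mark ACCACA, the RUNX motif, and ATTGG, the CCAAT box read on the other strand.
Spp1 promoter: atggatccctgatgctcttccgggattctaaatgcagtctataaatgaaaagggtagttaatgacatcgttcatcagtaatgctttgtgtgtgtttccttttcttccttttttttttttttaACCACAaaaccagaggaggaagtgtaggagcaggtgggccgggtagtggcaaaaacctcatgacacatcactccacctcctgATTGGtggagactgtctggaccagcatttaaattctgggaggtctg
Motifs were searched on both strands, and positions are counted from the start, so that -1 is the base before it. ACCACA matched 1 time, at -128, and 14% of 32851 promoters of the same length held it. CCAAT matched 1 time, at -46, with 33.8% of promoters holding it. CCGGAA, the ETS motif, matched 1 time, at -233, with 12% of promoters holding it. TATAAA matched 1 time, at -211, with 12.4% of promoters holding it. TGANTCA, the AP-1 motif, was in 6.75% of promoters, and CACGTG, the E-box, in 6.02%, and neither of these letter strings was in the Spp1 window. A match is a description of letters, not of a bound site.

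Each array carried the Spp1 probe on 10 spots, so that every level is a mean of repeated readings of the same hybridisation. All Spp1 spots on all 24 arrays were well above background and 0 were saturated. On IR+Ly+Imatinib 2, 1 spot was marked as an outlier and left out. The levels below are the mean of the spots' log2 intensities, relative to the array's own 75th percentile. The SD between the spots of an array lay between 0.03 and 0.17, with a median of 0.06, and was highest on IR 1 at 0.17. Before scaling, the mean intensity was 372440 on IR 1 and 131212 on IR 2, against 14009 to 38954 on the other 22 arrays. The scanner read arrays at a high and a low gain and kept the low-gain reading for bright spots. All 10 Spp1 spots came from the low-gain scan on both IR arrays, and also on untreated 1 and both Ly+Su arrays, among others. On IR+Su 1 and IR+Ly+Su 1 the count was 0 of 10.

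**Figure D1:**
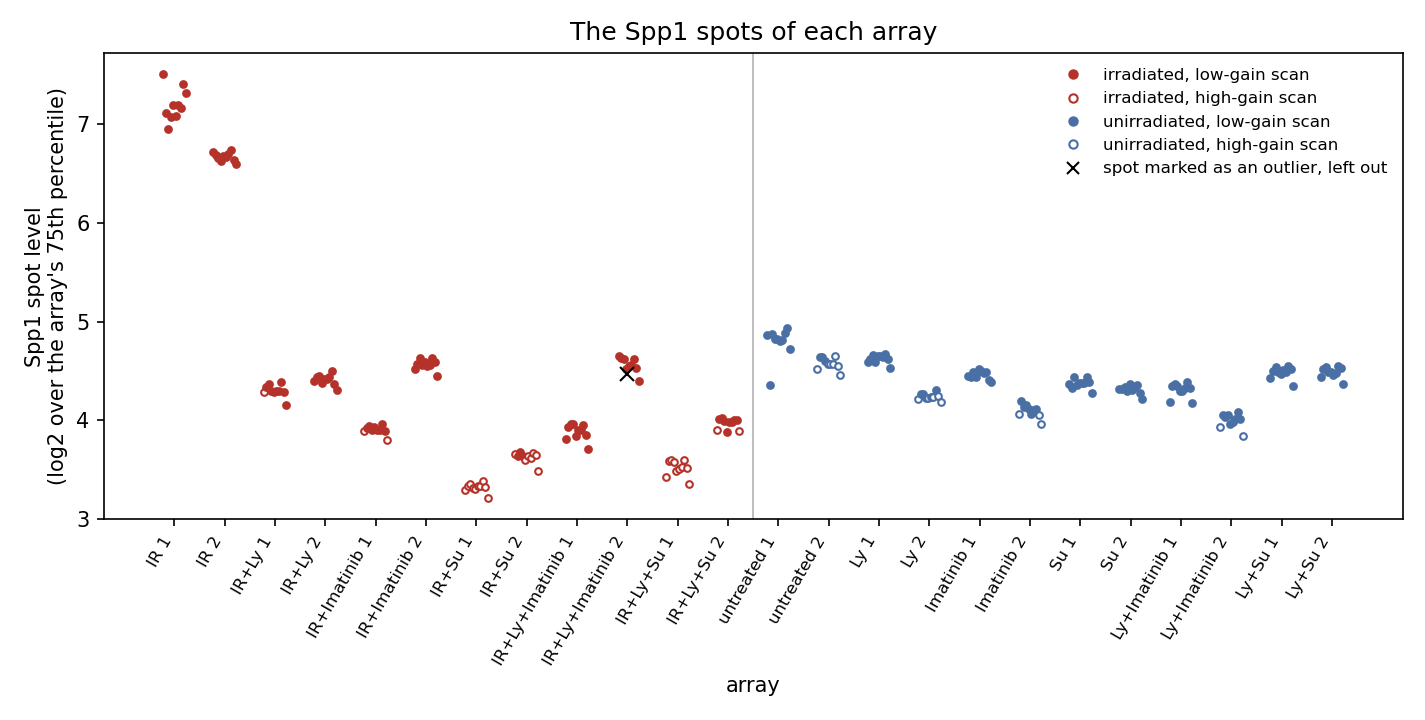
Each point is 1 of the 10 Spp1 spots of an array, as log2 intensity over the array's 75th percentile, with irradiated arrays left of the line and unirradiated arrays right of it. Open points are readings of the high-gain scan and the cross is the spot left out. The spots of each IR array lie apart from those of every other array.

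The array IR 1 stood apart from the rest. Its 75th percentile was 2518 intensity units, against 703.6 to 1768 on the other arrays, and its mean spike-in level was 8.51 on the log2 scale, against 9.18 to 10.67. The replicates of IR correlated at r = 0.973 over genes, against 0.975 to 0.994 in the other groups. IR+Ly+Imatinib 1 had 330 spots marked as outliers, against 5 to 80 on the other arrays. On IR+Ly+Imatinib 2 and both IR+Ly+Su arrays 75.9% to 78.5% of spots were well above background. The other arrays had 62.0% to 73.3%. The arrays lay on 6 slides of 4, and no slide held irradiated together with unirradiated samples, so slide and irradiation cannot be told apart. Irradiated drug groups other than IR+Ly were also on other slides than IR. With 2 arrays in a group, the number of arrays limits the precision of every value. All 9 markers of alveolar type II cells, the cells that make surfactant, were well above background, at mean levels of 3.99 to 4.71 on the IR arrays and 4.52 to 4.54 on the untreated arrays.

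Spp1 was higher in irradiated lung without drug than in every other group, and above the array's 75th percentile in all groups. The levels were 7.20 and 6.67 in IR lungs, against 4.79 and 4.58 in untreated lungs. Both IR arrays lay above all other 22 arrays, which spanned 3.32 to 4.79. In units of the array's 75th percentile, the IR lungs read 147 and 102, against 27.7 and 23.9 in the untreated lungs.

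In the arm with Ly, the levels were 4.30 and 4.41 in IR+Ly lungs, against 4.62 and 4.24 in Ly lungs. In the arm with Imatinib, they were 3.91 and 4.57 in IR+Imatinib lungs, against 4.46 and 4.10 in Imatinib lungs. In both arms the irradiated and unirradiated arrays overlapped. In the arm with Su, the levels were 3.32 and 3.63 in IR+Su lungs, against 4.37 and 4.31 in Su lungs. With Ly and Su together, they were 3.52 and 3.97 in IR+Ly+Su lungs, against 4.49 and 4.49 in Ly+Su lungs. In both arms with Su the irradiated arrays therefore lay below the unirradiated ones without overlap. With Ly and Imatinib together, the levels were 3.88 and 4.57 in IR+Ly+Imatinib lungs, against 4.31 and 3.997 in Ly+Imatinib lungs, and overlapped.

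**Figure D2:**
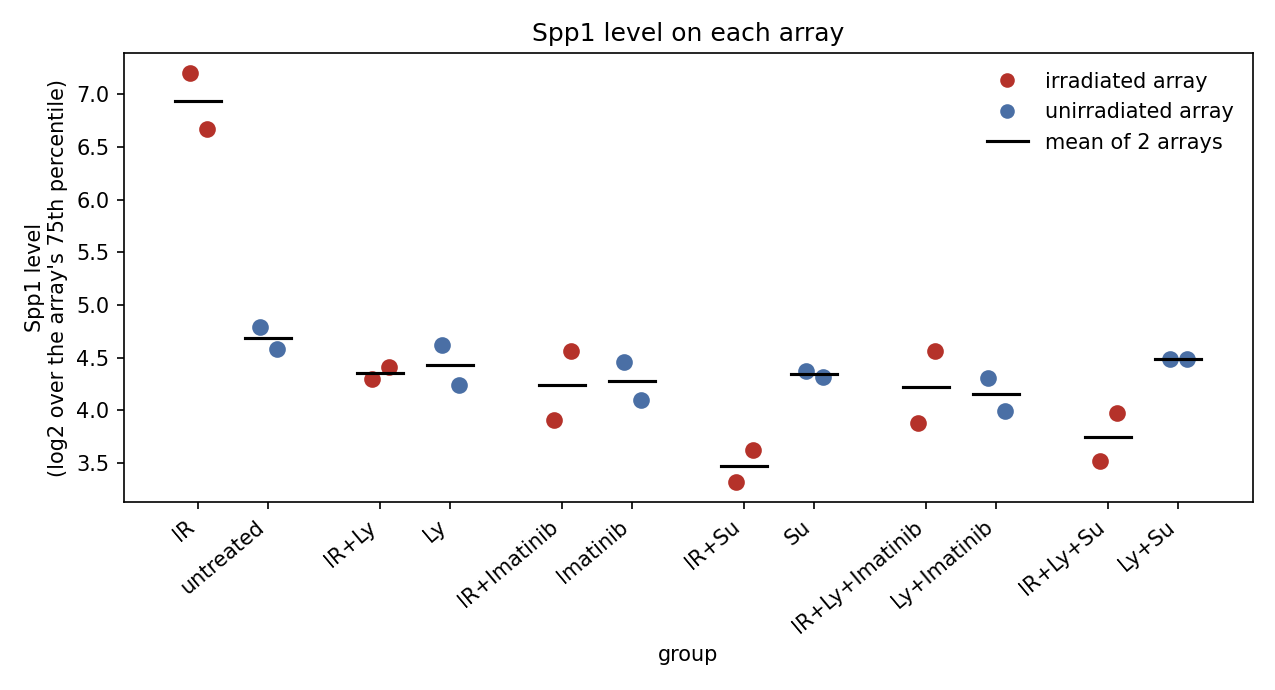
Spp1 level of each array, as log2 intensity over the array's 75th percentile, by group, with each irradiated group left of its unirradiated counterpart; the bar is the mean of 2 arrays. The IR arrays, at 7.20 and 6.67, lie above the other 22, and the IR+Su and IR+Ly+Su arrays, at 3.32 to 3.97, lie below every unirradiated array.

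From highest to lowest, the group means (± SD, n = 2) were 6.94 ± 0.37 in IR, 4.68 ± 0.15 in untreated, 4.49 ± 0.00086 in Ly+Su and 4.43 ± 0.27 in Ly. Next came IR+Ly at 4.35 ± 0.08, Su at 4.34 ± 0.04, Imatinib at 4.28 ± 0.26 and IR+Imatinib at 4.24 ± 0.47. The lowest were IR+Ly+Imatinib at 4.22 ± 0.48, Ly+Imatinib at 4.15 ± 0.22, IR+Ly+Su at 3.74 ± 0.32 and IR+Su at 3.47 ± 0.22. Pooled over the groups, the SD between replicates was 0.28. Of the neighbours in this order, IR and untreated, untreated and Ly+Su, and Ly+Imatinib and IR+Ly+Su did not overlap, and the gaps between their means were 2.25, 0.20 and 0.41. All other neighbours overlapped. The gap between untreated and Ly+Su was smaller than the pooled SD.

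Without drug, Spp1 was 2.25 ± 0.27 higher on the log2 scale in IR than in untreated lung, or 4.76-fold (difference ± SE from limma's fit, as for all differences below). Without IR 1 the difference was 1.99. Among the 20409 genes tested this ranked 163 from the highest. With a drug in both lungs, the irradiated minus unirradiated difference was -0.08 ± 0.27 with Ly and -0.04 ± 0.27 with Imatinib. It was 0.07 ± 0.27 with Ly+Imatinib. These 3 values were smaller than their SE and changed sign with the array left out. They ran between -0.27 and 0.11 for Ly, between -0.37 and 0.29 for Imatinib, and between -0.27 and 0.42 for Ly+Imatinib.

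With Su the difference had the opposite sign to that without drug. It was -0.87 ± 0.27 in IR+Su against Su, a level 1.83-fold lower, and -0.74 ± 0.27 in IR+Ly+Su against Ly+Su. Leaving out each array in turn gave -1.02 to -0.72 with Su and -0.97 to -0.52 with Ly+Su. Averaged over the 5 drug arms, irradiated minus unirradiated was -0.33 ± 0.12. Averaged over all 6 arms it was 0.10 ± 0.11, since the arm without drug and the Su arms have opposite signs.

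Against IR, all 10 irradiated arrays with a drug were lower. They had a lowest level of 3.32, a median of 3.94 and a highest of 4.57, against 7.20 and 6.67 in IR lungs. The difference from IR was -2.58 ± 0.27 for IR+Ly, a level 5.98-fold lower, and this pair shared a slide. It was -2.70 ± 0.27 for IR+Imatinib and -2.71 ± 0.27 for IR+Ly+Imatinib, levels 6.49-fold and 6.55-fold lower. IR+Su, at -3.46 ± 0.27, was 11.02-fold lower, and IR+Ly+Su, at -3.19 ± 0.27, was 9.13-fold lower. The average over the 5 drug groups was -2.93 ± 0.21, a level 7.61-fold lower, which ranked 19 from the lowest of 20409 genes. Without IR 1 the average was -2.66 and the 5 differences ran from -3.20 to -2.32. All 5 share the same 2 IR arrays and are not independent of each other.

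**Figure D3:**
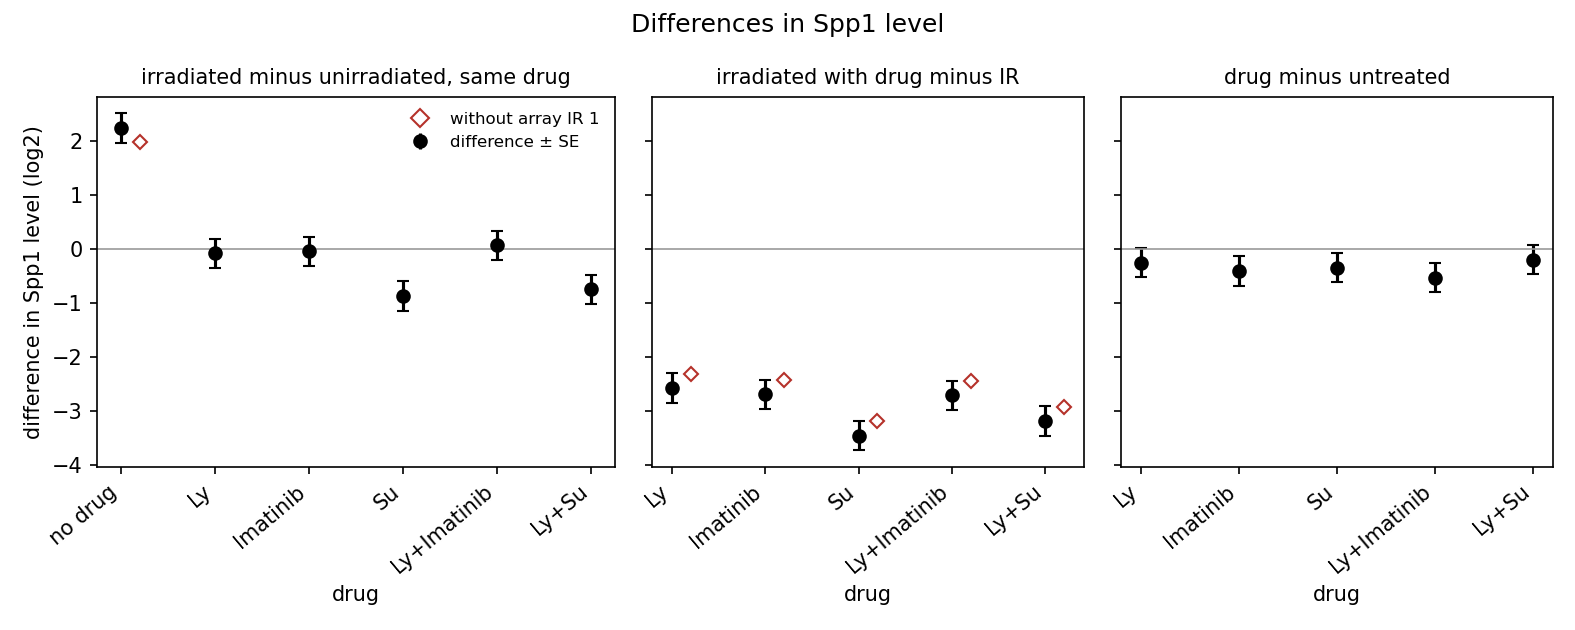
Differences in Spp1 level on the log2 scale (points, with the SE of limma's fit) between irradiated and unirradiated lung of the same drug, between irradiated lung with a drug and IR, and between drug and untreated lung; diamonds leave out IR 1. The difference of 2.25 without drug stands against -0.87 to 0.07 with a drug, and every irradiated drug group lies 2.58 to 3.46 below IR.

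In unirradiated lung the drugs were accompanied by smaller differences, which share the 2 untreated arrays. Of these drug groups only Ly shared a slide with untreated lung. For the others, slide and drug cannot be told apart. The 10 arrays with a drug had a lowest level of 3.997, a median of 4.34 and a highest of 4.62, against 4.79 and 4.58 in untreated lungs. The differences from untreated were -0.25 for Ly, -0.41 for Imatinib, -0.34 for Su, -0.53 for Ly+Imatinib and -0.20 for Ly+Su, each with an SE of 0.27. Their average of -0.35 ± 0.21 was 0.17 without scaling between arrays and 0.10 with spike-in scaling, so its direction depended on the scaling. The median of all genes moved as well, from 0.001 to 0.52 without scaling and 0.45 with spike-in scaling. Spp1 was below that median in each case. The irradiated minus unirradiated difference of the drug arms, on average, minus that without drug was -2.58 ± 0.30. By arm this change was -2.33 with Ly, -2.29 with Imatinib, -3.12 with Su, -2.18 with Ly+Imatinib and -2.99 with Ly+Su, each with an SE of 0.38. Without IR 1 the average was -2.32.

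Su and Imatinib were compared within slides. IR+Su minus IR+Imatinib was -0.76 ± 0.27, with levels of 3.32 and 3.63 in IR+Su, against 3.91 and 4.57 in IR+Imatinib, and no overlap. IR+Ly+Su differed from IR+Ly+Imatinib by -0.48 ± 0.27, and those arrays overlapped. Without irradiation, Su differed from Imatinib by 0.06 ± 0.27 and Ly+Su from Ly+Imatinib by 0.33 ± 0.27. Over the 4 irradiated arrays with Su the levels ran from 3.32 to 3.97, against 3.88 to 4.57 over the 6 irradiated arrays with another drug. The 4 irradiated arrays with Su were also below all 12 unirradiated arrays, the lowest of which was at 3.997.

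Adding Ly to Su or to Imatinib in irradiated lung came with no drop in Spp1 beyond the spread. The groups compared here lay on different slides, so slide and the added drug cannot be told apart. IR+Ly+Su differed from IR+Su by 0.27 ± 0.27 and IR+Ly+Imatinib from IR+Imatinib by -0.01 ± 0.27. Adding Su to Ly gave a difference of -0.61 ± 0.27 in IR+Ly+Su against IR+Ly, and adding Imatinib one of -0.13 ± 0.27 in IR+Ly+Imatinib against IR+Ly.

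The separation of the IR arrays from all others was wide for Spp1. Both IR arrays were above the other 22 for 673 of 20409 genes (3.3%) and below them for 725 (3.55%). The gap between the lower IR array and the highest other array was 1.88 for Spp1, or 3.68-fold, the third widest. It exceeded 1 for 8 genes. The others with a gene symbol that is not a clone name were Mmp12, macrophage elastase, at 1.25, Orm2, an acute-phase glycoprotein, at 1.22, Cdhr1, a cadherin-related protein of photoreceptors, at 1.19 and Mup1, a major urinary protein, at 1.11. These genes were chosen after their values were seen.

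In IR against untreated lung, the receptors of osteopontin were called about as often as other genes. Of 11 receptor genes, 1 was higher and 1 lower in IR than in untreated lung at an adjusted p under 0.05, against 7.1% higher and 7.29% lower of all genes, and the median difference was 0.06, against -0.005 over all genes. Without IR 1, 0 of the 11 passed, against 0.544% higher and 0.265% lower of all genes. The counts over all genes moved with single arrays. The comparison of IR with untreated called 2937 genes with all arrays, 165 with IR 1 left out and 8618 with IR 2 left out. Leaving out untreated 1 gave 972 genes and leaving out untreated 2 gave 633. With only these 4 arrays in the fit, limma called 0 genes, with 1979 at an unadjusted p under 0.05.

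The receptor that rose was Itgb6, the epithelial integrin subunit of the dimer that activates latent TGF-beta. Its levels were 3.19 and 1.23 in IR lungs, against 0.56 and -0.06 in untreated lungs, a difference of 1.96 ± 0.43 (adjusted p = 0.0146) that was 0.98 without IR 1 (adjusted p = 0.126). Both IR arrays were above both untreated arrays, but IR 2 was below the highest irradiated drug array, at 1.64. Itga4, the alpha subunit of the leukocyte integrin VLA-4, fell. It stood at -2.02 and -0.97 in IR lungs, against -0.77 and -0.34 in untreated lungs (difference -0.94 ± 0.29, adjusted p = 0.0464; -0.42 without IR 1, adjusted p = 0.499).

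Cd44 and the beta subunit of the vitronectin receptor did not pass. Cd44 was at 3.64 and 3.77 in IR lungs, against 3.33 and 3.75 in untreated lungs, and the 10 irradiated drug arrays ran from 3.36 to 3.91 with a median of 3.67. Cd44 therefore overlapped between all these sets. Itgb3, that subunit, was at 3.94 and 3.54 in IR lungs, against 2.71 and 3.098 in untreated lungs. The irradiated drug arrays ran from 2.28 to 3.28, but Itgb3 passed the test in neither comparison.

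Between the 5 irradiated drug groups and IR, 2 of 11 receptors were higher and 1 lower, against 18.3% higher and 16.7% lower of all genes. Itga4 was higher by 1.26 ± 0.23 (adjusted p = 0.00205; 0.74 without IR 1, adjusted p = 0.0869). Itga9, whose integrin binds the thrombin-cut form of osteopontin, was higher by 0.85 (adjusted p = 0.0226), but by 0.09 without IR 1 (adjusted p = 0.82). Its level was 1.13 on IR 1 and 2.65 on IR 2. Itgb6 was lower (difference -1.11, adjusted p = 0.0226; -0.13 without IR 1, adjusted p = 0.807). Without IR 1, 0 of 11 passed, against 2.92% higher and 1.66% lower of all genes.

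In the drug arms, receptors were called about as often as other genes between irradiated and unirradiated lung. Irradiated minus unirradiated over the 5 drug arms, 3 of 11 were higher and 1 lower, against 15.5% higher and 15.4% lower of all genes. Itgb6 was higher by 0.65, Cd44 by 0.30 and Itgb1, the shared beta1 subunit, by 0.24, and Itga8, a partner of beta1, was lower (difference -0.28). Averaged over all 6 arms the receptors called were again Itgb6, Cd44 and Itgb1, higher, and Itga8, lower, against 16.4% higher and 16.4% lower of all genes.

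Of 13 genes whose products cut or modify osteopontin, 12 were tested, since Plg was too dim. In IR against untreated lung 2 were higher and 0 lower, against 7.1% higher and 7.29% lower of all genes. Both were still called without IR 1, against 0.544% higher of all genes. Ctsd, the lysosomal protease cathepsin D, had levels of 6.54 and 6.43 in IR lungs, against 5.25 and 5.28 in untreated lungs. It rose by 1.22 ± 0.19, or 2.33-fold (adjusted p = 0.00466; 1.17 without IR 1, adjusted p = 0.0468), and both IR arrays were above all others. Mmp12, which cuts elastin and osteopontin, had levels of -1.43 and -1.19 in IR lungs, against -4.79 and -5.87 in untreated lungs. It rose by 4.02 ± 0.42 (adjusted p = 0.000691; 4.14 without IR 1, adjusted p = 0.00562), although only 1 of the 2 untreated arrays read it well above background.

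In the 5 irradiated drug groups against IR, 4 of the 12 enzymes were lower and 0 higher, against 18.3% higher and 16.7% lower of all genes, with a median difference of -0.32, against 0.01 over all genes. Mmp12 ran from -4.36 to -2.67 with a median of -3.66 in the irradiated drug lungs, below both IR arrays, and fell by 2.26 on the log2 scale (SE 0.33, adjusted p = 0.000791). Ctsd ran from 4.96 to 5.98 with a median of 5.15 and fell by 1.21 (SE 0.15, adjusted p = 0.000375). Mmp3 (stromelysin 1) fell by 1.30 and Tgm2, a transglutaminase that cross-links osteopontin, by 0.31. Without IR 1 the calls were 2 of 12, against 1.66% lower of all genes, Mmp12 at -2.38 (adjusted p = 0.0152) and Ctsd at -1.15 (adjusted p = 0.0114).

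Other proteases differed with irradiation over the arms. Mmp2 (gelatinase A) was higher by 0.91 ± 0.17 over the 6 arms, and in the drug arms it was higher by 0.98 (adjusted p = 0.00178). Its levels ran from 1.64 to 3.21 in irradiated drug lungs, against 0.81 to 1.86 in drug lungs. Mmp9 (gelatinase B) was lower (difference -1.02 ± 0.32) over the 6 arms. Over the 6 arms 6 of 12 enzymes were higher, among them Acp5, a phosphatase that acts on osteopontin, at 0.49, and 1 was lower, against 16.4% higher and 16.4% lower of all genes. Of the 4 related acidic phosphoproteins of bone and dentin, Ibsp, Dmp1 and Dspp did not pass the filter on dim probes. Mepe, the only one tested, was higher by 0.30 over the 6 arms and passed in neither comparison with IR.

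Of the 13 transcription factors known to act on the Spp1 gene that were tested, 1 was higher and 1 lower in IR than in untreated lung, a share near that of all genes (7.1% higher and 7.29% lower), and 0 passed without IR 1. Hif1a, the hypoxia factor, was higher by 0.89 (adjusted p = 0.0344; 0.34 without IR 1, adjusted p = 0.38). Jun, an AP-1 subunit, was lower (difference -0.58, adjusted p = 0.0216). In the irradiated drug groups against IR, Hif1a, at -0.79, and the AP-1 subunit Fosl2, at -0.72, were lower, 2 of 13, and 0 of 13 were higher, against 18.3% higher and 16.7% lower of all genes; 0 passed without IR 1. Over the 6 arms 4 of 13 were lower and 0 higher, against 16.4% higher and 16.4% lower of all genes, namely Usf1 at -0.41, Sp1 at -0.41, Ets1 at -0.39 and Jun at -0.28.

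Genes of lipid-handling macrophages, the cells best known for Spp1 in fibrotic lung, were higher in IR lung and lower in the irradiated drug groups. The list had 24 genes, of which 17 were higher and 0 lower in IR than in untreated lung, against 7.1% higher and 7.29% lower of all genes, with a median difference of 0.96. Without IR 1 these were 7 and 0, against 0.544% and 0.265%, with a median of 0.93. Against IR, 20 of 24 were lower and 0 higher in the irradiated drug groups, against 16.7% lower and 18.3% higher of all genes, with a median of -0.75. Without IR 1 these were 8 and 0, against 1.66% and 2.92%, with a median of -0.66. For 12 of the 24 (50%) both IR arrays lay above the other 22, against 3.3% of all genes. The mean level of the list was 2.54 to 2.92 on the IR arrays, 1.57 to 2.18 on the 10 irradiated drug arrays, 1.32 to 1.77 on the 10 drug arrays and 1.42 to 1.45 on the untreated arrays. The list shares Mmp12, Ctsb and Ctsd with the enzymes.

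Gpnmb, a lysosomal transmembrane glycoprotein of such macrophages, had levels of 1.46 and 0.63 in IR lungs, against -2.18 and -1.90 in untreated lungs. It rose by 3.08 ± 0.33, or 8.48-fold (adjusted p = 0.000691; 2.67 without IR 1, adjusted p = 0.00775). The irradiated drug lungs ran from -1.55 to -0.23 with a median of -1.04, below both IR arrays, and Gpnmb fell by 1.97 against IR (SE 0.25, adjusted p = 0.000441). Trem2, a lipid-sensing receptor, had levels of 1.00 and 1.23 in IR lungs, against -1.76 and -1.56 in untreated lungs. It rose by 2.78 ± 0.36 (adjusted p = 0.00189; 2.89 without IR 1, adjusted p = 0.0131) and fell by 1.66 in the irradiated drug groups against IR (SE 0.28, adjusted p = 0.00139). Their range was -1.27 to 0.48, with a median of -0.88.

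With a drug present, some of these macrophage genes were still higher in irradiated lung. Over the 5 drug arms, irradiated minus unirradiated, 8 of 24 list genes were still higher and 0 lower, against 15.5% higher and 15.4% lower of all genes, with a median of 0.16, against 0.01 over all genes, while Spp1 differed by -0.33 ± 0.12. Gpnmb was higher by 0.92 ± 0.15 (adjusted p = 0.000548), and its 10 irradiated drug arrays, at -1.55 to -0.23, did not overlap the 10 drug arrays, at -2.14 to -1.70. Mmp12 was higher by 0.72 ± 0.19 (adjusted p = 0.011) and Trem2 by 0.70 ± 0.16 (adjusted p = 0.00494). Fabp5, a fatty acid binding protein, was higher by 0.68 ± 0.15 (adjusted p = 0.00466). Apoe, at 0.14 (adjusted p = 0.120), Cd63, at 0.10 (adjusted p = 0.232), and Ctsd, at 0.16 (adjusted p = 0.175), did not pass.

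The change of the irradiation difference with the drugs was tested for these genes. Of the 24, 11 had a smaller irradiation difference in the drug arms than without drug, against 2.09% of all genes in that direction, and 0 had a larger one, against 2.83%. The median was -0.88. Mmp12 differed by -3.30, Gpnmb by -2.16 and Trem2 by -2.08. Without IR 1, 2 of 24 passed, Mmp12 and Syngr1, against 0.108% and 0.206% of all genes.

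**Figure D4:**
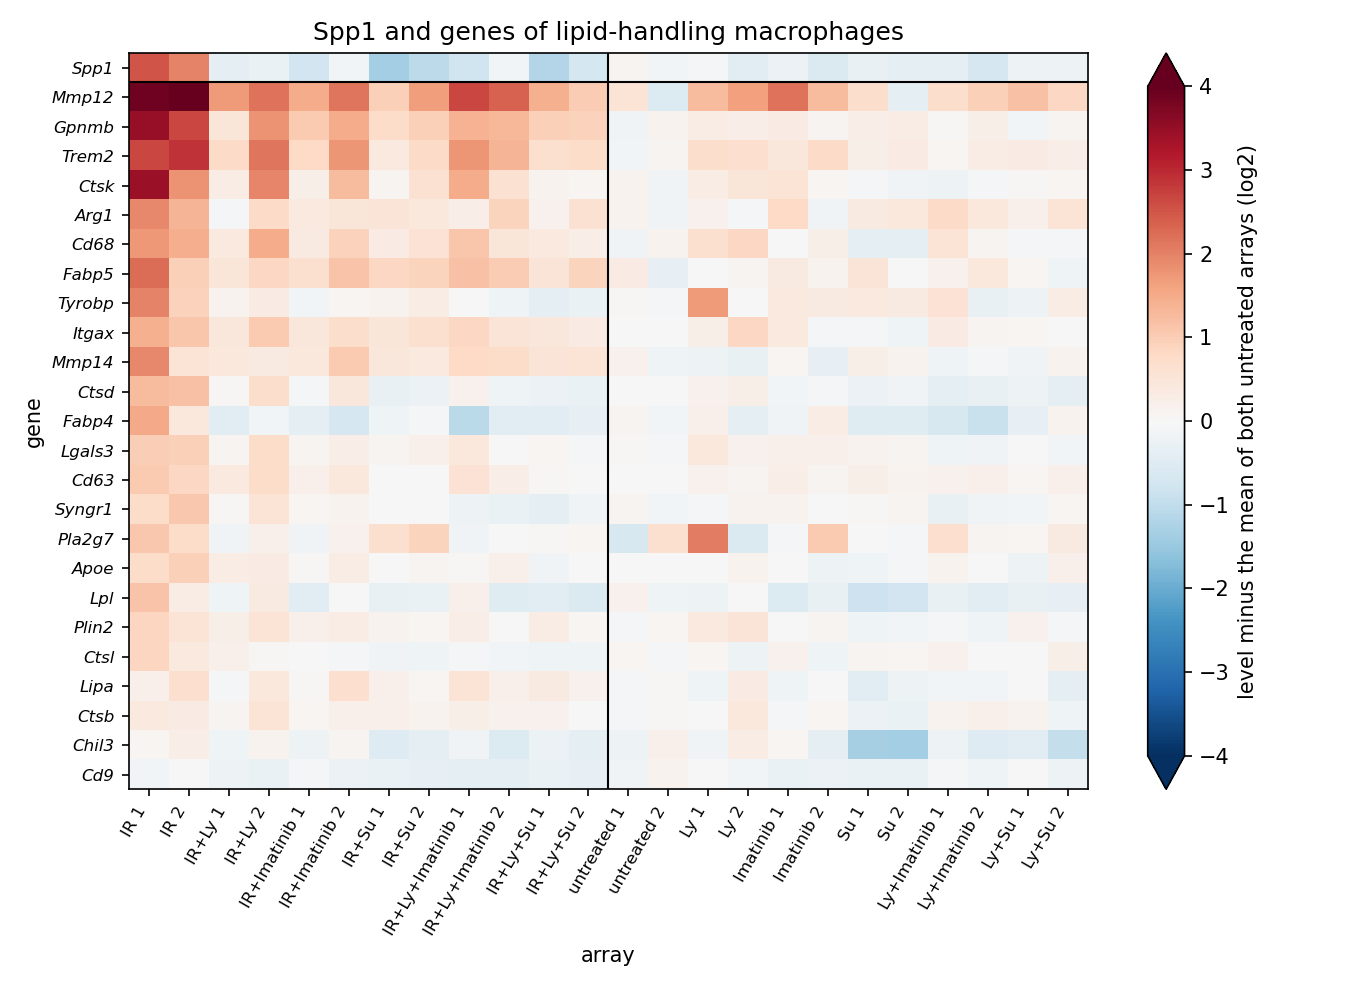
Level of Spp1 (top row) and of the 24 genes of lipid-handling macrophages on each array, as the log2 difference from the mean of both untreated arrays, with irradiated arrays left of the line. Red is higher and blue lower than untreated, and the scale ends at ±4. The IR columns are red for Spp1 and for most of the 24 genes. With a drug, Spp1 is blue in both the irradiated and the unirradiated columns. Mmp12, Gpnmb and Trem2 are red in the irradiated drug columns. On average these genes were also above untreated in the unirradiated drug columns, but by less.

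General markers of macrophages and monocytes moved in the same direction. Of 17 tested, 8 were higher and 0 lower in IR than in untreated lung (median 0.72), against 7.1% higher and 7.29% lower of all genes. In the irradiated drug groups 8 were lower and 1 higher than in IR (median -0.54), against 16.7% lower and 18.3% higher of all genes. Without IR 1 the medians were 0.34 and -0.36, and 0 passed in either comparison. The scavenger receptors Msr1, at 2.54, and Marco, at 1.77, and the complement genes C1qc, at 1.78, and C1qa, at 1.67, were the examples with the largest differences from untreated. Csf1r, the receptor that macrophages need for survival, was at 1.83 and 2.03 in IR lungs, against 1.97 and 2.29 in untreated lungs, and overlapped. The mean level of the list was 1.60 to 1.92 on the IR arrays, 1.03 to 1.63 on the irradiated drug arrays, 0.66 to 1.41 on the drug arrays and 0.96 to 0.99 on the untreated arrays. The part of cell numbers in the Spp1 difference was not tested.

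Markers of other cells that could bring Spp1 RNA were read beside it. Spp1 is also a gene of bone, kidney tubule and gallbladder. Of 7 bone and cartilage genes tested, 3 were higher and 0 lower in IR than in untreated lung (1 and 0 without IR 1), against 7.1% higher of all genes (0.544% without IR 1). The mean level of the list was -4.50 to -4.04 on the IR arrays, -4.97 to -3.76 on the irradiated drug arrays, -5.35 to -4.61 on the drug arrays and -5.26 to -5.02 on the untreated arrays. That mean covers 8 genes, including Ibsp, which was too dim to test. The bone factor Sp7 was not above background on the IR or the untreated arrays, and Bglap, the osteocalcin gene, not on the untreated arrays. The kidney and gallbladder genes, 5 tested, had 1 higher and 1 lower (0 and 0 without IR 1), against 7.1% higher and 7.29% lower of all genes, and mean levels of -3.49 to -3.34 on the IR arrays, -3.53 to -2.65 on the irradiated drug arrays, -3.74 to -3.00 on the drug arrays and -3.33 to -3.14 on the untreated arrays. The mean levels of the kidney and gallbladder list cover 6 genes, including a gene too dim to test. The kidney gene Umod was not above background on the untreated arrays.

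Mast cell genes were far higher on IR 1 than on IR 2. Their mean level was -0.75 on IR 1 and -2.89 on IR 2, -4.13 to -2.44 on the irradiated drug arrays, -4.67 to -3.89 on the drug arrays and -4.42 to -4.30 on the untreated arrays. That mean covers 8 genes, including those too dim to test. Of 6 tested, 4 were higher and 1 lower in IR than in untreated lung, against 7.1% higher and 7.29% lower of all genes, and 0 passed without IR 1. Cma1, a mast cell chymase, had levels of 3.87 and 0.78 in IR lungs, against -2.20 and -2.75 in untreated lungs. Of 8 neutrophil genes 0 passed in IR against untreated, and of 12 T and NK cell genes 0 passed. Of 8 B and plasma cell genes, 6 were higher in the irradiated drug groups than in IR, against 18.3% of all genes, with a median of 1.30, led by the B cell factor Pax5 at 2.14 ± 0.25. Pax5 (adjusted p = 0.00641) was among 3 that still passed without IR 1, against 2.92% of all genes. The mean level of the B and plasma cell genes was -0.68 to 1.09 on the irradiated drug arrays and -0.27 to 0.63 on the drug arrays. It was -0.78 to -0.56 on the IR arrays and -0.83 to -0.58 on the untreated arrays. The part of these cells in the Spp1 difference was not tested.

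Structural and epithelial markers were read as well. In IR against untreated lung, 0 of 9 alveolar type II genes, 1 of 7 alveolar type I genes (lower), 2 of 7 club and ciliated cell genes (lower), 0 of 7 smooth muscle genes and 1 of 8 fibroblast genes (higher) passed, against 7.1% higher and 7.29% lower of all genes. In the irradiated drug groups against IR, 2 alveolar type II genes were higher and 1 lower, 1 alveolar type I gene and 2 club and ciliated cell genes were lower, and 3 smooth muscle genes were higher, against 18.3% higher and 16.7% lower of all genes. Without IR 1, 0 genes of these lists passed in either comparison.

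Of 10 collagen and fibronectin matrix genes tested, 5 were higher in IR than in untreated lung (median 1.43), against 7.1% of all genes, but 0 without IR 1. Over the 5 drug arms, 7 of 10 were higher and 0 lower (median 0.64), against 15.5% higher of all genes. Col1a1, a chain of type I collagen, was at 5.15 and 4.41 in IR lungs, against 3.47 and 3.101 in untreated lungs (1.496 ± 0.39, adjusted p = 0.0243; 1.12 without IR 1, adjusted p = 0.248). It ran from 3.56 to 5.29 with a median of 4.11 in irradiated drug lungs, which overlapped IR. Over the 5 drug arms Col1a1 was higher by 0.87 and Fn1, fibronectin, by 0.84. In the irradiated drug groups against IR, 3 of 10 were lower (median -0.63), against 16.7% of all genes, and 0 without IR 1. Timp1, an inhibitor of matrix metalloproteinases, fell by 2.25 (SE 0.43, adjusted p = 0.00279; -1.29 without IR 1, adjusted p = 0.124).

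Osteopontin is a matricellular protein, and 18 others of that kind were tested. In IR against untreated lung 7 were higher and 3 lower, against 7.1% higher and 7.29% lower of all genes. Without IR 1, 1 was higher and 0 lower, against 0.544% and 0.265%. Tnc, tenascin C, was higher by 2.89 ± 0.62 (adjusted p = 0.013; 2.07 without IR 1, adjusted p = 0.17), and Tnn, tenascin N, was lower (difference -3.104). In the irradiated drug groups against IR 5 were lower and 1 higher, against 16.7% lower and 18.3% higher of all genes, and 0 passed without IR 1. Tnc was lower (difference -1.30) and Tnxb, tenascin X, higher by 1.25. Over the 6 arms 11 of 18 were higher and 1 lower, against 16.4% higher and 16.4% lower of all genes, with Tnc at 1.88.

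The ligands of the 2 pathways named in the title moved unevenly. Tgfb1 was at -0.26 and 0.46 in IR lungs, against -0.07 and 0.10 in untreated lungs, and overlapped. Of 12 TGF-beta genes, 3 were higher and 2 lower in IR lung, against 7.1% higher and 7.29% lower of all genes. Acvrl1, an endothelial receptor of the family, was lower (difference -1.38). In the irradiated drug groups against IR, 3 were higher and 1 lower, against 18.3% higher and 16.7% lower of all genes. Without IR 1, 0 of 12 passed in either comparison.

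Between IR and untreated lung, Pdgfc alone of 6 PDGF genes passed, against 7.1% higher and 7.29% lower of all genes. Its levels were -1.01 and -1.54 in IR lungs, against -2.68 and -3.14 in untreated lungs. It rose by 1.63 ± 0.25 (adjusted p = 0.00466), or by 1.36 without IR 1 (adjusted p = 0.0518). In irradiated drug lungs it ran from -2.76 to -1.80 with a median of -2.49 and fell by 1.11 against IR (adjusted p = 0.00191; -0.84 without IR 1, adjusted p = 0.0711). Pdgfc was the PDGF gene with both IR arrays above the other 22, against 3.3% of all genes. Pdgfra and Pdgfrb, the receptors, overlapped between IR and untreated lung.

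With the drugs alone, against untreated lung, 0 genes passed in any of the 21 lists, with 0.108% of all genes higher and 0.167% lower. By limma 2555 of the 20409 genes had an unadjusted p under 0.05 in that comparison.

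Genes whose levels ran most like those of Spp1 were taken over the 12 irradiated arrays by Pearson correlation, among 13600 genes with a symbol that were well above background on all of them. These points share arrays, slides and scaling, and the 2 IR arrays set much of each correlation, so no test was made. The median r was 0.22 and the 95th percentile 0.85, and 201 genes were over 0.9. The 10 highest were Asgr2, a subunit of the asialoglycoprotein receptor, at 0.966, Man2b2, a lysosomal mannosidase, at 0.961, Micos13, of the mitochondrial inner membrane, at 0.959, Rnf128, a ubiquitin ligase, at 0.957 and Fbxl15, an F-box protein, at 0.956. Speer4d followed at 0.955, Orm2 at 0.954, Syne4, a nuclear envelope protein, at 0.951, Cox5a, a cytochrome c oxidase subunit, at 0.951 and Mif, macrophage migration inhibitory factor, at 0.948. The 5 lowest were Fnbp4 at -0.978, Gab1 at -0.965, Pom121 at -0.959, Micall1 at -0.955 and Dop1a at -0.950.

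All of the 10 except Micos13 had both IR arrays above the other 22. Over the 10 irradiated arrays with a drug their correlations with Spp1 ran from 0.52 to 0.86, and over the 12 unirradiated arrays from -0.16 to 0.71. Without IR 1, 5 of the 10 were again among the highest 10, and with only the irradiated drug arrays 0 were. For the 24 genes of lipid-handling macrophages the r with Spp1 over all irradiated arrays ran from 0.31 (Lipa) to 0.94 (Apoe), with a median of 0.82 and 5 over 0.9. With only the 10 irradiated drug arrays, the r of these 24 genes ran from -0.44 (Pla2g7) to 0.85 (Apoe). With only the 12 unirradiated arrays it ran from -0.41 (Trem2) to 0.53 (Fabp4). For 17 general markers of macrophages and monocytes the r over all irradiated arrays ran from -0.63 (Maf) to 0.92 (Fcgr1), with a median of 0.59. Of these, 4 were below 0, Csf1r, at -0.59, among them. Among the first list Apoe ranked 19 (r = 0.943), Gpnmb 60 (r = 0.925), Mmp12 143 (r = 0.909) and Ctsd 175 (r = 0.903).

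**Figure D5:**
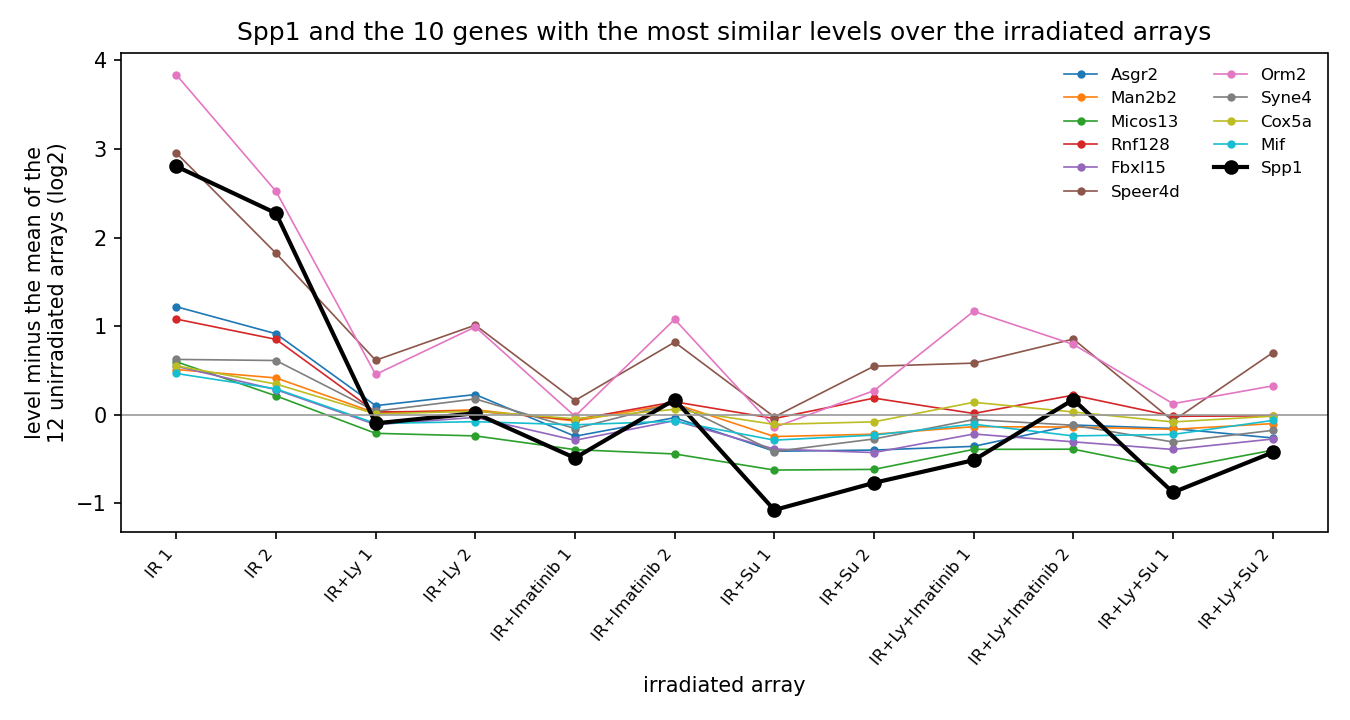
Levels of Spp1 (black) and of the 10 genes with the highest correlation with it over the 12 irradiated arrays, as the log2 difference from the mean of the 12 unirradiated arrays; lines only join the arrays of a gene. The lines of Spp1 and of the 10 genes are highest on the IR arrays, and Spp1 has its lowest points on IR+Su 1 and IR+Ly+Su 1.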

How the data were processed

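Values came from the files of the 24 arrays. The intensity (background-subtracted, not scaled between arrays) and the flags for outliers, saturation, background and gain were made with Feature Extraction 9.1.3.1 from Agilent, per the file headers. In the series table as deposited, that intensity is multiplied by a constant. A probe's level is the mean of its spots; of 41174 probes, 619 left because every spot on some array was an outlier. RefSeq tables named 22951 probes by accession, 6659 by symbol and 3109 by synonym, and 8455 kept the name in the file.

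The authors' deposited intensity was put on the log2 scale relative to the 75th percentile of its array, so changes are relative. The brightest probe stood for a gene, and 20409 genes that passed a filter on dim probes were tested. limma 3.58.1 (R 4.3.3; version 1.17.8 of the package data.table) fitted all 12 group means together; p-values are adjusted by Benjamini-Hochberg over all 20409 genes, with a threshold of 0.05. The steps were tested on simulated data. Spp1 and the 21 gene lists were chosen with earlier results of these data known. The naming rule allowed all receptors and enzymes, the leading called genes of other lists and the 10 highest and 5 lowest correlations; a part is named here. Separate samples are labelled as biological replicates, with no animal named. For IR+Su, the 2 samples were numbered from their titles, with which a source name disagrees. Replicate numbers did not pair the samples.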

Additional observations from a re-analysis of the deposited data

Results flagged for a closer look

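For 20 genes of the lists, the difference between irradiated and unirradiated lung was not the same in the 5 drug arms as without drug, by limma's test of that difference over all genes (adjusted p between 0.0068 and 0.0487). Negative values mean a smaller difference in the drug arms. Of all genes, 2.09% had a negative value that passed this test and 2.83% a positive one. Among macrophage and lysosomal genes the values on the log2 scale were -3.30 for Mmp12, -2.16 for Gpnmb, -2.11 for Marco, -2.08 for Trem2, -1.81 for Tyrobp, -1.55 for Arg1, -1.06 for Ctsd, -0.91 for Syngr1, -0.84 for Cd63, -0.84 for Lgals3, -0.73 for Ctsl and -0.71 for Apoe, and 1.40 for Maf. Among matrix, growth factor, bone, mast cell, muscle and kidney genes they were -2.30 for Timp1, -1.22 for Pdgfc, -1.61 for Bglap, -4.07 for Cpa3, -3.76 for Cma1, 0.96 for Actg2 and 1.25 for Aqp2. Without IR 1 the adjusted p stayed under 0.05 for Mmp12 (0.0302) and Syngr1 (0.0389) and for none of the other 18. Cpa3 and Bglap were not well above background on the untreated arrays. Spp1 itself differed by -2.58 in this sense and was not tested.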

How the results depend on the processing

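Spp1 was higher in IR than in untreated lung and lower in each irradiated drug group than in IR under every alternative run; the sizes moved with the scaling. IR minus untreated was 2.54 with normexp, 3.23 without scaling and 3.95 with spike-in scaling, the last 2 of which were added after seeing the data. Without scaling, IR+Ly, IR+Imatinib, IR+Su and IR+Ly+Su minus IR were -3.04, -3.14, -3.80 and -3.67 and their average with IR+Ly+Imatinib -3.31. With spike-in scaling the 5 values were -3.94, -4.50, -4.88, -3.93 (IR+Ly+Imatinib) and -4.87, averaging -4.43. With median scaling IR+Imatinib and IR+Ly+Imatinib minus IR were -2.99 and -3.06. IR+Ly+Imatinib minus Ly+Imatinib was 0.56 with normexp, and with spike-in scaling IR+Imatinib minus Imatinib was -0.78 and IR+Su minus Su -1.34. The change of the irradiation difference with drugs was -3.48 without scaling and -4.53 with spike-in scaling. Drug minus untreated turned positive without scaling (Ly 0.16, Imatinib 0.26, Su 0.14, Ly+Imatinib 0.060, Ly+Su 0.25, average 0.17) and with spike-in scaling (Imatinib 0.23, Su 0.41, Ly+Imatinib 0.078, average 0.10), where Ly+Su minus Ly+Imatinib was -0.19. The cause was not tested. For the drugs minus untreated, on average, the median of all genes was 0.52 without scaling and 0.45 with spike-in scaling. These scalings also moved the median of all genes, for IR minus untreated by 0.97 without scaling, by 1.70 with spike-in scaling and by -0.42 with normexp, and for the irradiated drug groups minus IR by -0.37, -1.48 and 0.11, and by -0.24 with median scaling.

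Leaving out each array in turn gave 1.99 to 2.52 for IR minus untreated, -0.37 to 0.29 for IR+Imatinib minus Imatinib, -0.27 to 0.42 for IR+Ly+Imatinib minus Ly+Imatinib, -3.03 to -2.37 for IR+Imatinib minus IR and -3.05 to -2.37 for IR+Ly+Imatinib minus IR. Genes called ranged from 165 to 8618 for IR minus untreated, from 25 to 103 for the drugs minus untreated, from 934 to 10330 for the irradiated drug groups minus IR and from 5683 to 8493 for irradiated minus unirradiated over 6 arms.

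For the same 4 comparisons in the order 6 arms, IR minus untreated, irradiated drug groups minus IR and drugs minus untreated, 6703, 2937, 7133 and 56 genes were called. They became 1664, 1435, 1744 and 1 with normexp (1992 of the last at an unadjusted p under 0.05), 4400, 10820, 839 and 299 without scaling, and 548, 13142, 14633 and 3 with spike-in scaling. Without a filter on dim probes 1875 and 31 were called for IR and for the drugs minus untreated, and 37 for the latter comparison with quantile normalization. With every probe tested, 10767 probes were called for the irradiated drug groups minus IR. With the slide as a random block the counts were 3328, 4492 and 5, and the block could not be fitted for IR minus untreated. With only the groups compared, 0 were called for IR minus untreated (1979 at an unadjusted p under 0.05) and 3904 for the irradiated drug groups minus IR. With the replicate block the counts were 6966, 3382, 7575 and 39; replicate numbers did not pair the samples (median r of 66 pairs of groups 0.04, 20 over 0.1). The share of higher calls was 50.1% over the 6 arms and 52.3% for the irradiated drug groups minus IR, and with median scaling 23.7% and 19.7%. Of the 10 genes most like Spp1, 1 was shared by Spearman correlation, 0 over the irradiated drug arrays, 5 without IR 1, 0 over the unirradiated arrays and 1 over all arrays. Each Spp1 probe on its own was not run, since there is 1.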

Other observations

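Over the 10 irradiated arrays with a drug, without the 2 IR arrays, the 10 genes with levels most like those of Spp1 were others. They were Gdf15 (r = 0.936), Aen (0.928), Aspa (0.921), Fbxl16 (0.907), Sptssb (0.907), A930001C03Rik (0.9004), Itgb4 (0.894), Eda2r (0.893), Ccng1 (0.889) and Muc4 (0.886). These genes were looked at after their values were seen, and the arrays share slides and scaling, so no theme is drawn from them. Gdf15 is a stress cytokine of the TGF-beta family, and Itgb4 is the integrin subunit of hemidesmosomes. Irradiated minus unirradiated over the 6 arms, the 10 genes ran from -0.03 for Fbxl16 to 1.72 for Gdf15, with a median of 0.38, and Spp1 was at 0.10.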
